A study of Caenorhabditis elegans with 12 samples.

Results

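Among the che-2 cultures of the study, culture E30 was set against cultures E35 and E36, using the 6 che-2 libraries of 12 in all. Each culture gave 1 library of AMsh cells and 1 of non-AMsh cells, so that the 3 cultures were each read from 2 fractions. Per the labels, larvae were grown from L1 arrest in liquid at 20 °C, and late larvae labelled L3 and L4 were dissociated and sorted after 36 to 42 hours. The che-2(e1033) animals were strain OS11549 and the wild type animals, used here only for comparison, were strain OS4079, and both carried F16F9.3pro::dsRed. This reporter marks the amphid sheath (AMsh) glia, the cells that wrap the ciliated endings of the main sensory organs of the nematode head. The AMsh fraction held dsRed-positive cells and the non-AMsh fraction all other cells from the same scatter gates, so each pair of fractions was drawn from 1 set of animals. The labels give no age of each culture within those hours, so the order of the cultures in developmental time comes from no label.

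Caenorhabditis elegans passes through larval stages that each end in a moult, when the hypodermis secretes a new cuticle and the old one is shed. Cuticle collagens and moulting genes are transcribed in pulses once per moult, and some collagens are restricted to a stage. Hermaphrodites make sperm in the last larval stage and then switch to oocytes, and the intestine begins to make yolk proteins (vitellogenins) at the change to adulthood. Genes of these programmes are therefore widely used as markers of larval age.

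Gene counts of the 6 che-2 libraries summed to 15420762 to 23178841. They are given below as CPM (gene counts scaled to a common library total) after scaling by the trimmed mean of M-values (TMM) over these libraries. The AMsh library of E35 stood apart, with 15711 genes detected against 17863 to 18791 in the other 5 che-2 libraries, and 6.88% of its counts came from ribosomal RNA genes against 1.28 to 4.62%. The E30 columns of the count table are named in another style than those of E35 and E36, in both genotypes. Whether they also differ in sequencing run is not stated, and such a difference cannot be told apart from the culture. The che-2 gene itself, which encodes an intraflagellar transport protein needed to build sensory cilia, stood at 0.711 and 1.37 CPM in E30, against 12.9 and 3.99 in E35 and 4.95 and 0.303 in E36, in the AMsh and the non-AMsh fraction of each culture. All values below are given in that order, AMsh fraction first. The labels do not say what the allele does to the transcript, so this level does not check them.

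AMsh markers set the 2 fractions apart, but not equally in the 3 cultures. The summed level of 7 AMsh markers was 499.9 and 95.95 CPM in E30, against 3410.2 and 135 in E35 and 1517 and 113 in E36. F16F9.3, whose promoter drives the reporter, was at 78.2 and 9.22 CPM in E30, against 476 and 5.57 in E35 and 270.5 and 7.28 in E36, and all 3 AMsh libraries were above all 3 non-AMsh libraries. In the AMsh fraction the E30 library was the lowest of the 3, and the median marker differed by −2.25 (log2) there and by 0 in the non-AMsh fraction. The marker ver-1 was at 0 in the AMsh libraries of E35 and E36 and in all 3 non-AMsh libraries, and at 4.08 CPM in the AMsh library of E30. In wild type the E30 AMsh library was the lowest too, with summed markers of 858 and 139 CPM in E30, against 3504 and 188 in E35 and 3396 and 113 in E36. Because the marker level moved with the culture in the AMsh fraction, genes are counted here only where both fractions differed the same way. The part of the marker level in the AMsh differences was not tested. Markers of other cell types were at similar levels in both fractions. In E30 body muscle markers summed to 3631 and 2843 CPM and intestine markers to 666 and 691 CPM. An AMsh value below is therefore not a level in glia alone, and the 2 fractions of a culture are not readings of wholly different cells.

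Genes were counted as higher or lower in E30 where the log2 ratio of E30 over the mean of E35 and E36 was at least 1 in size, with the same sign in both fractions, and E30 lay outside the range of E35 and E36 in both. Ratios were taken on CPM plus a pseudocount of 0.5, which understates the change of low genes. Of 17432 genes tested, 722 (4.14%) were higher and 1301 (7.46%) were lower in E30 by this rule, and 156 (0.895%) were past it in opposite directions in the 2 fractions. The median over all genes was −0.06 in the AMsh and −0.04 in the non-AMsh fraction. In bulk samples such as these, fewer cells of a type and less RNA per cell cannot be told apart. Just inside the rule was F27C1.3, with log2 differences of −1.41 and −1.0003, and just outside it F28C6.5, with 1.32 and 0.9995.

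With the culture as the replicate, the comparison is 1 against 2, and an exact permutation of the cultures cannot go below p = 0.333. On counts summed over both fractions of a culture, edgeR's quasi-likelihood test called 0 of 17432 genes after Benjamini-Hochberg adjustment. At an unadjusted p under 0.05 it had 1613 genes (9.25%), and DESeq2 on the same sums called 112 higher and 531 lower. The only replicate spread in this test is that between E35 and E36, with 1 residual degree of freedom. edgeR moderates it across genes, with a median of 6.11 prior degrees of freedom, so much of each gene's spread is borrowed from other genes. Within the fractions, the edgeR test called 113 genes higher (0.648%) and 426 lower (2.44%) in the non-AMsh libraries, and 10 higher (0.0574%) and 60 lower (0.344%) in the AMsh libraries. In both fractions at once 8 genes passed as higher (0.0459%) and 56 as lower (0.321%). Of the 722 genes higher by the rule, 108 passed the non-AMsh test, as did 394 of the 1301 lower genes. These p-values rest only on the spread between single libraries of E35 and E36, moderated across genes in the same way, and both fractions of a culture share its animals. Adjusted p-values below are from the non-AMsh fraction, with Benjamini-Hochberg adjustment over 17432 genes, unless stated otherwise. The AMsh result is not given for every gene. Among genes where it is left out, dpy-7, bli-1, mlt-11, col-19, msp-38, perm-2 and elf-1 did not pass there, and col-7, col-8 and col-62 did.

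**Figure D1:**
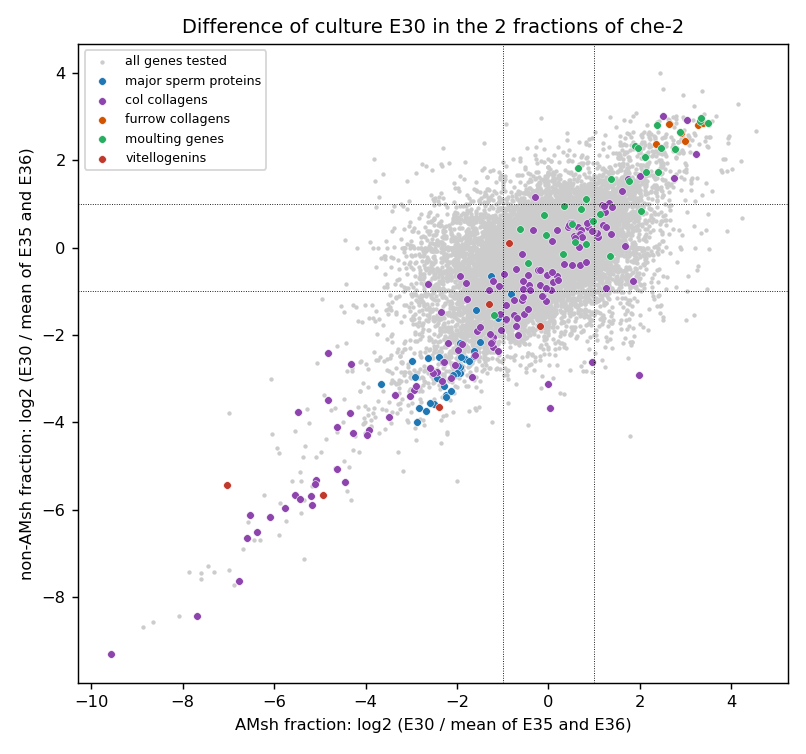
Each grey point is 1 of 17432 genes tested, with the log2 ratio of che-2 culture E30 over the mean of E35 and E36 in the AMsh fraction (x axis) and the non-AMsh fraction (y axis), on CPM plus 0.5. Coloured points are members of 5 gene lists and dotted lines mark a 2-fold difference. Furrow collagens and many moulting genes lie at the upper right. Most major sperm proteins, most vitellogenins and many col collagens lie at the lower left, but vit-1 is at −0.87 and 0.11 and vit-3 at −0.19 and −1.80.

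Furrow collagens, which form the circumferential furrows of the cuticle and are made early in each moulting pulse, were higher in E30 in all 6 measured members. Their median log2 difference was 2.95 in the AMsh and 2.72 in the non-AMsh fraction. dpy-7 (WBGene00001069, chromosome X, 7536467 to 7537792) was at 334 and 316 CPM in E30, against 28.4 and 21.3 in E35 and 78.7 and 67.02 in E36. The model fitted to the non-AMsh fraction put its log2 change at 2.84 (SE 0.59, adjusted p = 0.0384). For dpy-10, another furrow collagen, the levels were 231 and 175 CPM in E30, against 12.4 and 13.99 in E35 and 31.2 and 33.8 in E36, and the fitted change was 2.87 (SE 0.52, adjusted p = 0.0245). This gene passed in the AMsh fraction too (adjusted p = 0.0439). dpy-2 read 214 and 194 CPM in E30, against 5.71 and 16.1 in E35 and 37.8 and 38.1 in E36, with a fitted change of 2.84 (SE 0.52, adjusted p = 0.0245). In all 3 genes E30 lay above both other cultures and E36 lay between E30 and E35 in each fraction. The fourth member to pass was dpy-3, and dpy-8 and dpy-9 were at adjusted p = 0.0519 and adjusted p = 0.0507.

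The strut collagens bli-1 and bli-2, which build the columns that separate the layers of the adult cuticle, were also higher in E30. bli-1 (WBGene00000251, chromosome II, 10708960 to 10712156) stood at 884 and 601 CPM in E30, against 36.5 and 34.8 in E35 and 129 and 109 in E36, with a fitted log2 change of 3.06 (SE 0.60, adjusted p = 0.0302). bli-2 was at 1739 and 1548 CPM in E30, against 104.8 and 155 in E35 and 480.0 and 567 in E36, and at adjusted p = 0.127 it did not pass. Both E30 libraries were above all 4 others for each of these genes. Of 11 collagens named for body shape, 6 were higher by the rule and 1 lower, and 0 passed the non-AMsh test after adjustment. The shares by the rule were 54.5% higher and 9.09% lower, against 4.14% and 7.46% of all genes. Without E35 only 2 of the 11 were higher. sqt-3, a collagen needed for normal body form, was at 9063 and 6737 CPM in E30, against 594 and 1717 in E35 and 4383 and 4999.8 in E36, and rol-6, whose dominant allele makes animals roll, at 605 and 591 CPM in E30, against 67.5 and 121 in E35 and 357 and 358 in E36. In both genes E35 was the lowest culture in each fraction. The lower one, dpy-17, was at 1.90 and 2.24 CPM in E30, against 7.67 and 8.29 in E35 and 4.64 and 7.38 in E36.

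Moulting genes also stood higher in E30, with 14 of 31 measured members higher and 0 lower by the rule, and 8 of them past the non-AMsh test. By the rule 45.2% were higher and 0% lower, against 4.14% and 7.46% of all genes. The list's median log2 difference was 1.34 in the AMsh and 1.11 in the non-AMsh fraction. mlt-11, which encodes a secreted protease inhibitor needed for moulting, was at 697 and 543 CPM in E30, against 36.1 and 55.3 in E35 and 104 and 90.01 in E36, a fitted log2 change of 2.90 (SE 0.45, adjusted p = 0.0144). noah-1 and noah-2 encode zona pellucida domain proteins of the outer extracellular matrix. noah-1 read 335 and 261 CPM in E30, against 13.03 and 19.8 in E35 and 52.9 and 46.3 in E36, and noah-2 353 and 267 CPM in E30, against 9.11 and 22.7 in E35 and 52.6 and 49.5 in E36. Both passed the test (adjusted p = 0.0219 and adjusted p = 0.0219). Next to them, qua-1, a hedgehog-related protein needed for moulting, was at 1225 and 979.5 CPM in E30, against 80.1 and 104 in E35 and 255 and 206 in E36, with a fitted change of 2.66 (SE 0.48, adjusted p = 0.0239). In these 4 genes the E30 value exceeded both other cultures in each fraction, with E36 between E30 and E35. fbn-1, a fibrillin-related matrix protein, was at 56.2 and 54.7 CPM in E30, against 8.07 and 6.52 in E35 and 12.98 and 8.19 in E36 (adjusted p = 0.0109), and nas-37, the astacin protease that opens the old cuticle, at 137 and 114 CPM in E30, against 35.2 and 21.8 in E35 and 37.9 and 22.6 in E36 (adjusted p = 0.0183). For both of these, E35 and E36 were closer to each other than either was to E30. nhr-23, the nuclear receptor that drives moulting pulses, did not pass the rule, at 45.8 and 41.8 CPM in E30, against 51.8 and 16.5 in E35 and 19.9 and 26.03 in E36.

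**Figure D2:**
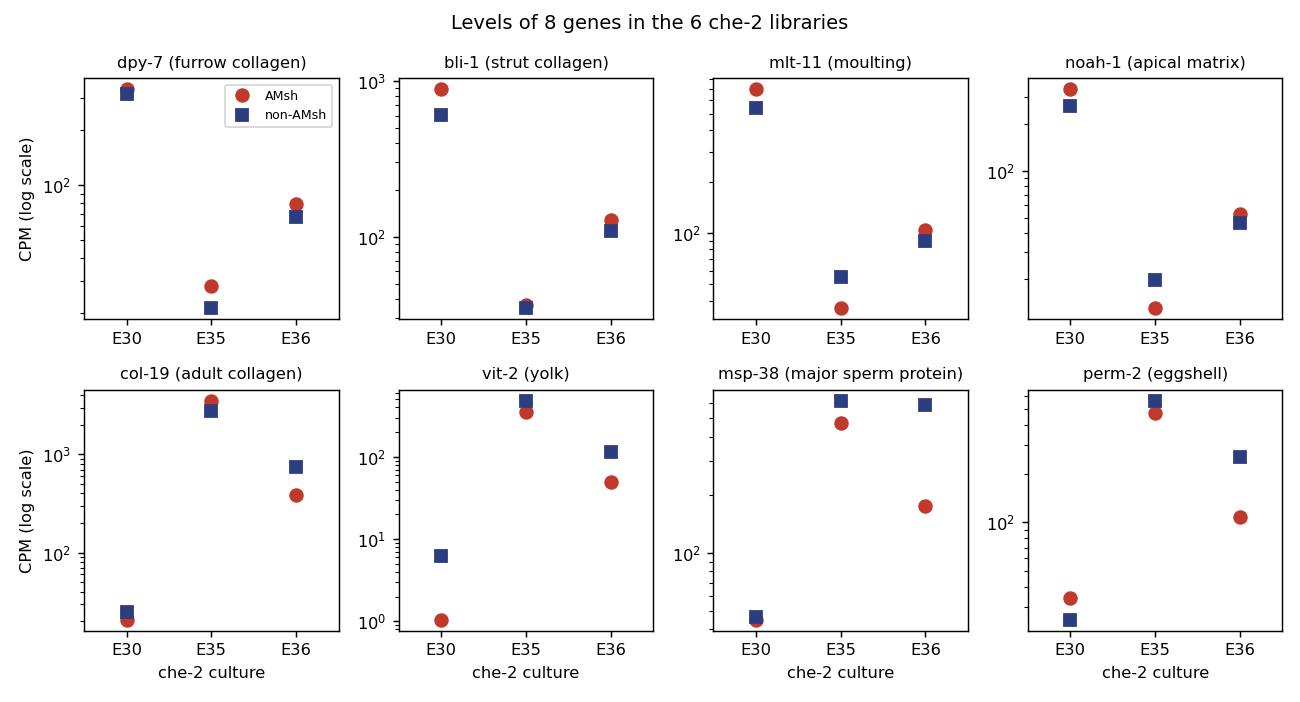
CPM (log axis) of 8 genes in the AMsh (red circles) and non-AMsh (blue squares) libraries of che-2 cultures E30, E35 and E36. In the upper row (dpy-7, bli-1, mlt-11, noah-1) E30 is the highest culture and E36 lies between; in the lower row (col-19, vit-2, msp-38, perm-2) E30 is the lowest, and msp-38 has nearly the same level in E35 and E36 in the non-AMsh fraction.

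Of 7 adult and strut collagens, 3 were lower in E30 by the rule, col-7, col-19 and col-62, and 2 were higher, the strut genes bli-1 and bli-2. These are 42.9% and 28.6%, against 7.46% and 4.14% of all genes. The median log2 difference of the list was 0.43 in the AMsh and −0.17 in the non-AMsh fraction. col-19 (WBGene00000608, chromosome X, 421707 to 422691), the standard reporter of the adult hypodermis and a target of the heterochronic pathway, was at 20.6 and 25.1 CPM in E30, against 3501 and 2797 in E35 and 389.6 and 752 in E36. Its fitted log2 change was −6.14 (SE 0.93, adjusted p = 0.0136). col-7 was at 0.474 and 0.0623 CPM in E30, against 179 and 167 in E35 and 31.3 and 54.99 in E36, with a fitted change of −10.64 (SE 1.20, adjusted p = 0.00476). col-62 read 2.18 and 1.74 CPM in E30, against 252 and 219.8 in E35 and 37.1 and 60.04 in E36, with −6.32 (SE 0.95, adjusted p = 0.0135). col-7, col-19 and col-62 share 1 order in both fractions, in which E30 is lowest and E35 highest. The listed col-63, at 1207 and 1130.1 CPM in E30, against 176 and 459.6 in E35 and 1151 and 1182 in E36, did not pass the rule, and there E35 was the lowest culture. bli-6, the most abundant of the 7, was at 12903 and 11568 CPM in E30, against 4039 and 9421 in E35 and 15063 and 16594 in E36 and did not pass it either, with E30 between E35 and E36 in both fractions.

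Over the whole col family, 55 of 144 measured genes (38.2%) were lower by the rule and 8 (5.56%) were higher. Over all genes the shares were 7.46% and 4.14%, so the higher share was near that of all genes. The median log2 difference was −0.62 in the AMsh and −1.15 in the non-AMsh fraction, and the non-AMsh test called 36 lower and 1 higher. The largest change was in col-8, with 0.332 and 0.187 CPM in E30, against 1159 and 676 in E35 and 107 and 190.3 in E36 and a fitted log2 change of −11.12 (SE 1.22, adjusted p = 0.00431). col-7, described above, followed, and then col-119, at 6.17 and 2.55 CPM in E30, against 2543 and 1696 in E35 and 191 and 404 in E36 and −8.68 (SE 1.12, adjusted p = 0.00872). In col-8 and col-119 each E30 library held less than 10 CPM, and E36 lay between E30 and E35. The E30 non-AMsh values of col-7 and col-8 were at or under the level of 3 counts, so their fitted changes are imprecise. On CPM plus 0.5 the non-AMsh differences were −7.63 for col-7 and −9.30 for col-8. The 55 lower genes carried a large part of the collagen counts. They summed to 8275 CPM in the AMsh and 6949 CPM in the non-AMsh library of E30, against 175818 and 158145 CPM in E35 and 38272 and 57808 CPM in E36. As a share of all col counts this was 14.4% and 14.3% in E30, against 89.3% and 80.7% in E35 and 43.5% and 51.4% in E36. The 55 genes were picked by the rule in these same libraries, so their low level in E30 follows from that choice. col-139, chosen after its values were seen as the member of highest mean CPM, was at 401 and 318 CPM in E30, against 23616 and 20634 in E35 and 3981 and 6609 in E36 (adjusted p = 0.0131). The 8 higher genes summed to 4151 and 3786 CPM in E30, against 459 and 857 CPM in E35 and 2134 and 2183 CPM in E36. Their high sum in E30 likewise follows from the choice by the rule. Without E35 the higher genes were 5, and without E36 they were 18. The one that passed was col-128, at 32.1 and 43.7 CPM in E30, against 0.922 and 4.69 in E35 and 6.01 and 5.96 in E36 (adjusted p = 0.0102). Many col genes are near-identical copies, and how the submitters treated reads that map to several of them is not given in the sources used here, so values of single members are uncertain.

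**Figure D3:**
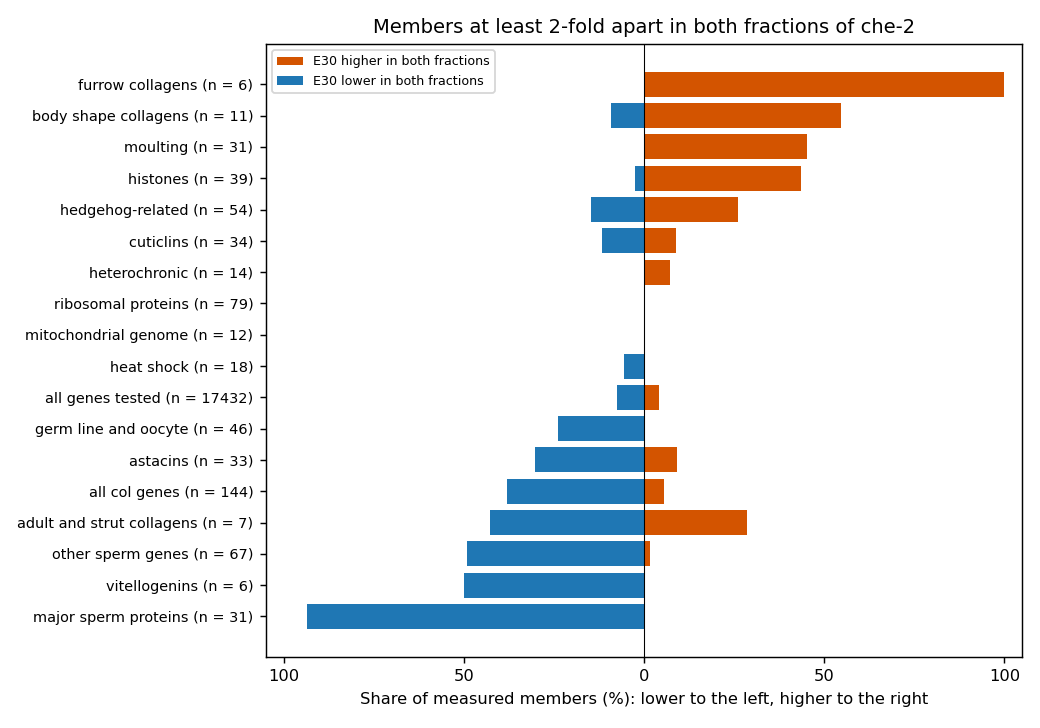
Share of the measured members of each gene list (%) that were at least 2-fold higher (orange, right) or lower (blue, left) in che-2 culture E30 than the mean of E35 and E36 in both fractions, with E30 outside their range. The furrow collagens have 6 of 6 members on the right and the major sperm proteins 29 of 31 on the left, against 4.14% and 7.46% of all genes tested, while the ribosomal protein and mitochondrial genome lists have none on either side.

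The yolk genes differed among themselves. vit-2 (WBGene00006926, chromosome X, 5101042 to 5106169), one of the main vitellogenins, was at 1.04 and 6.29 CPM in E30, against 353 and 477 in E35 and 49.1 and 113 in E36, with a fitted log2 change of −5.55 (SE 0.96, adjusted p = 0.0219). vit-6 was at 2.51 and 0.996 CPM in E30, against 166 and 102 in E35 and 16.2 and 49.5 in E36, with −6.24 (SE 0.73, adjusted p = 0.00538). Both passed in the AMsh fraction as well, with adjusted p = 0.00143 and adjusted p = 0.0291. vit-5 read 0.237 and 0 CPM in E30, against 5.36 and 5.19 in E35 and 1.37 and 6.27 in E36 and passed in the non-AMsh fraction (adjusted p = 0.0153), where E30 was at 0. These 3 of the 6 vitellogenins (50%) were lower by the rule, against 7.46% of all genes. vit-1 was at 26.5 and 24.8 CPM in E30, against 91.4 and 32.2 in E35 and 6.55 and 13.7 in E36, and there E36 was the lowest culture in both fractions. vit-3 had 1 count in E30, against 2 in E35 and 53 in E36, and vit-4 had 1 count in E30, against 4 in E35 and 67 in E36. For both of these genes the counts lay almost wholly in E36, and E30 and E35 were near 0. Near-identical copies make the split among vit-3, vit-4 and vit-5 uncertain. The summed level of all 6 vitellogenins was 30.4 and 32.1 CPM in E30, against 616 and 616 in E35 and 74.8 and 186 in E36. Most of that sum was vit-1 in E30 and vit-2 in E35 and E36, so it does not describe vit-3, vit-4 and vit-5. By that sum E30 was below both others in each fraction, and E36 was below E35.

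Sperm genes were lower in E30 as well. The major sperm proteins (MSPs), the cytoskeletal proteins that drive the crawling of nematode sperm, had 29 of 31 measured members lower and 0 higher by the rule, with 27 lower in the non-AMsh test and 0 in the AMsh test. Their median log2 difference was −2.08 in the AMsh and −2.74 in the non-AMsh fraction. Summed, they stood at 1409.7 and 1539.6 CPM in E30, against 8772 and 11789 in E35 and 3922 and 11991 in E36. E30 was lowest in each fraction, while in the non-AMsh fraction E35 and E36 were nearly equal. msp-38 (WBGene00003434, chromosome IV, 10143357 to 10143740) was at 44.9 and 46.6 CPM in E30, against 474 and 614 in E35 and 175 and 584 in E36, with a fitted change of −3.68 (SE 0.51, adjusted p = 0.0102), and msp-65 at 26.6 and 23.97 CPM in E30, against 286 and 414 in E35 and 109 and 364 in E36, with −4.02 (SE 0.52, adjusted p = 0.00916). The members msp-32 and msp-74 did not pass the rule, with log2 differences of −0.82 and −1.06 and of −1.26 and −0.65. MSP genes are near-identical too, so reads could be split among them.

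Of 67 other sperm genes, 33 were lower and 1 higher by the rule, with medians of −1.26 and −1.69, and 27 were lower in the non-AMsh test. By the rule 49.3% were lower and 1.49% higher, against 7.46% and 4.14% of all genes. The families differed in this. In the small nspd family all 9 measured members were lower, and of the ssp genes 10 of 12. Of 29 measured spe genes only 4 were lower and 1 was higher, with medians of −0.46 and −0.71. nspd-2 was at 46.5 and 59.96 CPM in E30, against 429 and 513 in E35 and 193 and 497 in E36, a fitted change of −3.07 (SE 0.49, adjusted p = 0.0166). The sperm phosphatase gene gsp-4 was at 40.3 and 35.6 CPM in E30, against 106 and 131 in E35 and 64.3 and 121.95 in E36, which met the rule, and its close relative gsp-3, at 115 and 93.8 CPM in E30, against 212 and 316 in E35 and 149.7 and 307 in E36, did not meet it. spe-6, a kinase needed in spermatocytes, was at 10.2 and 8.72 CPM in E30, against 15.3 and 16.7 in E35 and 11.99 and 21.2 in E36 and did not meet the rule. spe-11, a paternal-effect gene, was at 21.6 and 24.3 CPM in E30, against 65.2 and 69.7 in E35 and 53.97 and 58.7 in E36, with log2 differences of −1.44 and −1.38 (adjusted p = 0.143). The strongest was ssp-37, with 0 counts in E30 against 46.3 and 48.8 CPM in E35 and 6.01 and 27.2 CPM in E36, at least 349-fold lower when 3 counts over the culture are taken as its floor. The 1 higher member was spe-42, at 4.98 and 4.67 CPM in E30, against 0 and 2.53 in E35 and 3.27 and 1.11 in E36. E30 did hold sperm transcripts, since no MSP was at 0 in either of its libraries.

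Genes of oocytes and eggshell were less uniform, with 11 of 46 lower, 0 higher and medians of −0.57 and −0.74, and the non-AMsh test called 3 lower. By the rule 23.9% were lower and 0% higher, against 7.46% and 4.14% of all genes. perm-2 and perm-4 encode parts of the eggshell permeability barrier. perm-2 was at 34.1 and 25.1 CPM in E30, against 475 and 560.0 in E35 and 108 and 253 in E36, with a fitted log2 change of −4.02 (SE 0.66, adjusted p = 0.0177), and perm-4 at 82.2 and 65.3 CPM in E30, against 727 and 807 in E35 and 137 and 364 in E36, with −3.17 (SE 0.62, adjusted p = 0.0312). puf-3, an RNA-binding protein of oocytes, was the other to pass, at 3.13 and 3.05 CPM in E30, against 15.7 and 14.6 in E35 and 9.02 and 19.8 in E36 (adjusted p = 0.0442). rme-2, the yolk receptor of oocytes, was at 54.6 and 40.9 CPM in E30, against 161 and 231 in E35 and 84 and 92.6 in E36 and oma-1, a regulator of oocyte maturation, at 2.70 and 4.05 CPM in E30, against 18.8 and 9.81 in E35 and 11 and 11.2 in E36. Both met the rule, without passing the test (adjusted p = 0.136 and adjusted p = 0.259). Of 6 measured somatic gonad markers, 2 met the rule on the lower side and 0 on the higher, against 7.46% and 4.14% of all genes. These were sth-1, of the spermatheca, and inx-8, a gap junction innexin. sth-1 read 46.7 and 55.3 CPM in E30, against 155 and 175 in E35 and 169 and 193 in E36 and inx-8 16.98 and 15.3 CPM in E30, against 44.7 and 74.6 in E35 and 29.3 and 39.98 in E36, with adjusted p = 0.0813 and adjusted p = 0.095.

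The heterochronic genes, which time larval fates, had few members past the rule. In a list this small that is near the shares of all genes, 4.14% higher and 7.46% lower. Of 14 measured, 1 was higher (7.14%) and 0 lower. That gene was mab-10, a cofactor of lin-29 in the change to adulthood, at 7.87 and 9.22 CPM in E30, against 0 and 0.507 in E35 and 1.29 and 2.07 in E36 (adjusted p = 0.106). lin-29 itself, the transcription factor that activates adult collagens, was at 8.58 and 6.54 CPM in E30, against 11.7 and 5.95 in E35 and 6.47 and 5.91 in E36. lin-42, the period homolog whose transcript cycles with each moult, was at 101 and 105.3 CPM in E30, against 9.34 and 16.9 in E35 and 121 and 41.7 in E36, and the AMsh library of E36 was above that of E30. The early-stage genes lin-14 and lin-28 were under 5 CPM in every che-2 library. lin-41, a repressor of lin-29, was at 2.70 and 3.74 CPM in E30, against 5.82 and 10.6 in E35 and 5.21 and 6.22 in E36. Much of this pathway acts through translation, which transcript counts do not show.

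Hedgehog-related genes, which encode secreted proteins of the hypodermis, differed in both directions, with 14 of 54 higher (25.9%) and 8 lower (14.8%), or 7 and 7 without E35. wrt-2 was at 131 and 70.4 CPM in E30, against 4.27 and 7.79 in E35 and 12.1 and 16.3 in E36, with a fitted change of 2.54 (SE 0.48, adjusted p = 0.0279), and passed in the AMsh fraction too (adjusted p = 0.00717). wrt-10 was at 259 and 225 CPM in E30, against 9.45 and 23.4 in E35 and 46.2 and 51.7 in E36 (adjusted p = 0.0297). On the lower side grl-21 was at 12.4 and 11.02 CPM in E30, against 235 and 186 in E35 and 55.04 and 82.5 in E36, a fitted change of −3.60 (SE 0.64, adjusted p = 0.0231). Both of the wrt genes had their lowest values in E35, and grl-21 had its highest there. The astacin metalloproteases also split, with 3 of 33 higher (5 without E36) and 10 lower. These are 9.09% and 30.3%, against 4.14% and 7.46% of all genes. nas-1 was at 2.37 and 3.99 CPM in E30, against 69.97 and 77.9 in E35 and 23.3 and 55.3 in E36, with −4.06 (SE 0.54, adjusted p = 0.00964), and nas-20 at 3.08 and 2.62 CPM in E30, against 88.9 and 70.7 in E35 and 16.1 and 34.5 in E36, with −4.32 (SE 0.65, adjusted p = 0.0131). Of 34 cuticlins, 3 were higher (6 without E35 and 7 without E36) and 4 lower. These are 8.82% and 11.8%, against 4.14% and 7.46% of all genes, a small gap for a list of this size. cutl-28 and cutl-18 were among those higher. Histone genes, whose transcripts mark replicating cells, were higher in 17 of 39 and lower in 1, with 0 called by the non-AMsh test, and without E35 the higher ones were 7. By the rule 43.6% of the histone genes were higher and 2.56% lower, against 4.14% and 7.46% of all genes. The best measured of the higher ones was his-59, at 87.9 and 78.96 CPM in E30, against 8.30 and 16.5 in E35 and 32.05 and 39.2 in E36. The lower one was his-70, at 8.39 and 12.8 CPM in E30, against 25.8 and 34.1 in E35 and 21.7 and 39.6 in E36. Histone genes are near-identical copies, and their transcripts largely lack poly(A) tails, so these values carry both limits.

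Several lists had few or no members past the rule. None of 79 ribosomal protein genes and none of 12 protein-coding mitochondrial genes met the rule, with non-AMsh medians of 0.30 and 0.54. Among markers of other cell types, 0 of 6 intestine, 0 of 5 body muscle, 0 of 6 pharynx, 0 of 9 neuron and 0 of 3 coelomocyte genes met it. Over all genes 4.14% were higher and 7.46% lower, so 0 in lists this small is near that share. It does not show that these cell types were alike in the cultures. Summed intestine markers were 666 and 691 CPM in E30, against 468 and 541 in E35 and 376 and 437 in E36. Body muscle markers summed to 3631 and 2843 CPM in E30, against 5135 and 3889.5 in E35 and 3790.1 and 2849 in E36. Of the 18 heat shock genes, 1 was lower, hsp-43, at 10.3 and 9.03 CPM in E30, against 106 and 44.95 in E35 and 25.3 and 24.9 in E36. Of the 4 measured hypodermis and seam markers the only one to meet the rule was dpy-7, already described. Germ line markers were lower in 3 of 8 and sperm markers in 3 of 7, with 0 higher in each.

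The genes with the largest change on the lower side were little described ones. Y62H9A.4, Y62H9A.3 and K07A1.6 had 0 counts in E30. Y62H9A.4 (WBGene00013392, chromosome X, 11880126 to 11881226) was at 0 and 0 CPM in E30, against 111 and 98.01 in E35 and 14.7 and 68.1 in E36, at least 799-fold lower. Y62H9A.3 was at 0 and 0 CPM in E30, against 91.1 and 71.1 in E35 and 10.7 and 48.1 in E36, at least 604-fold lower, and K07A1.6 at 0 and 0 CPM in E30, against 60.7 and 57.4 in E35 and 17.8 and 45.7 in E36, at least 512-fold lower. Y62H9A.5, a neighbour of the other Y62H9A genes, had 3 counts in E30, and the ratio of E35 and E36 over E30 was 1954 (exact 95% interval 668 to 9476), which covers counting error only. A further pair of neighbours on the X chromosome was ZK813.2 and ZK813.3. With 1 count in E30, ZK813.2 had a ratio of 2791 (501 to 110240). ZK813.3 was at 0.0474 and 0.249 CPM in E30, against 379.9 and 343 in E35 and 59.9 and 230.4 in E36, with a fitted log2 change of −10.13 (SE 0.80, adjusted p = 0.00158). Each of these 6 genes was detected in both fractions of E35 and E36, and in both fractions E36 was between E30 and E35. K10C2.8 also had 0 counts in E30 and was at least 422-fold lower. For W02D9.6 and Y25C1A.14, likewise at 0, the bounds were 166-fold and 95.5-fold. The glutathione S-transferase gene gst-34 had 1 count in E30, against 128 and 10.1 CPM in E35 and 9.21 and 2.63 CPM in E36.

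On the higher side, the largest changes were led by ZC84.6 and cky-1. cky-1, a bHLH-PAS transcription factor gene, was at 17.4 and 21.1 CPM in E30, against 0 and 0.127 in E35 and 0.533 and 5.71 in E36, and neither fraction passed the test (adjusted p = 0.257 in the non-AMsh and 0.0651 in the AMsh fraction). osr-1, which acts in the response to osmotic stress, was at 54.8 and 52.6 CPM in E30, against 1.84 and 3.17 in E35 and 7.88 and 4.65 in E36, with a fitted change of 3.74 (SE 0.44, adjusted p = 0.00549). zmp-2, a matrix metalloproteinase, was at 146 and 106 CPM in E30, against 0.0576 and 12.3 in E35 and 18 and 22.7 in E36, with 2.60 (SE 0.46, adjusted p = 0.0227). lpr-5, a lipocalin of the apical extracellular matrix, was at 337 and 263 CPM in E30, against 14.2 and 18.7 in E35 and 41.8 and 50.8 in E36, with 2.92 (SE 0.55, adjusted p = 0.0279), and passed in the AMsh fraction too (adjusted p = 0.0348). elf-1 read 35.6 and 33.1 CPM in E30, against 0.461 and 1.71 in E35 and 7.95 and 3.23 in E36, with 3.73 (SE 0.51, adjusted p = 0.0101). In these 4 genes E30 was above both other cultures in each fraction, and E36 was between. Y73E7A.8, F01G10.9, F23H12.5 and T23F6.5 completed the largest 12 with wrt-2 and bli-1, and each of these 4 passed the non-AMsh test.

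Most genes of the rule held the 3 cultures in 1 order. E36 lay between E30 and E35 in both fractions in 494 of the 722 higher genes (68.4%) and in 841 of the 1301 lower genes (64.6%), against 21.97% of all 17432 genes. The rule itself requires E30 to be at one end, so part of that gap comes from the rule and no test was made of it. By pairs of cultures, the share of all genes at least 2-fold apart was 29.0% for E30 and E35, 24.3% for E30 and E36 and 16.8% for E35 and E36 in the non-AMsh fraction. In the AMsh fraction the shares were 46.0%, 24.3% and 41.8%, so there E35 was far from both others. For each culture, the gene-wise deviations from the fraction mean correlated between its AMsh and non-AMsh library at r = 0.585 for E30, 0.506 for E35 and 0.207 for E36. Between fractions of different cultures r was −0.519 to 0.063. Genes share libraries and scaling, so these r values describe the libraries only.

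The genes of the rule were spread over all chromosomes. Higher genes made up 2.79% of the genes tested on chromosome I and 6.26% on X, the ends of the range over the 6 nuclear chromosomes. Lower genes made up 5.6% on chromosome III and 9.18% on IV, the ends of theirs.

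The cultures with the same codes in wild type were compared by the same rule. There 705 genes (4.04%) were higher and 1355 (7.77%) lower in E30 over the same 17432 genes. Of the genes higher in che-2 culture E30, 38 (5.26%) were also higher in wild type E30 and 54 (7.48%) were lower there. Both shares were near the 4.04% and 7.77% of all genes. Of the genes lower in che-2 culture E30, 218 were also lower in wild type E30, against 7.77% of all genes. This is 16.8% of the che-2 genes and 16.1% of the wild type genes. Another 86 (6.61%) were higher in wild type E30, against 4.04% of all genes. Wild type values below were scaled among the 6 wild type libraries, not together with che-2. The furrow collagens summed to 2089 and 1784 CPM in E30, against 138 and 155 in E35 and 417 and 430.4 in E36 in che-2, and to 1492 and 1928 CPM in E30, against 1673 and 1578 in E35 and 1836 and 1747 in E36 in wild type. Of the 6 members, 0 met the rule in wild type in either direction. Vitellogenins, with the che-2 sums given above, summed in wild type to 51.4 and 6.74 CPM in E30, against 7.06 and 16.1 in E35 and 31.9 and 26 in E36. Major sperm proteins summed in wild type to 587 and 256 CPM in E30, against 562 and 658 in E35 and 778 and 1668 in E36, and there 3 of 31 met the rule, as lower. Both sums were higher in each of the 4 che-2 libraries of E35 and E36 than in each of the 6 wild type libraries. For col-19 the wild type levels were 149 and 21.3 CPM in E30, against 70.1 and 88.7 in E35 and 163 and 258 in E36, and for dpy-7 299 and 391.8 CPM in E30, against 296 and 263 in E35 and 295 and 316 in E36.

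The difference between genotypes in E30 against E35 and E36 was tested on culture sums of all 6 cultures, with 2 residual degrees of freedom. edgeR's quasi-likelihood test called 0 of 18737 genes, with 2426 (12.9%) at an unadjusted p under 0.05, and DESeq2 called 306 above and 455 below. The estimate, che-2 minus wild type in log2, was 2.45 (SE 0.99, adjusted p = 0.357) for dpy-7 and 3.37 (SE 1.08, adjusted p = 0.259) for bli-1. It was −5.62 (SE 1.57, adjusted p = 0.2) for col-19, −7.18 (SE 1.53, adjusted p = 0.131) for vit-2 and −2.29 (SE 0.90, adjusted p = 0.34) for msp-38. None of these 5 passed, so a difference between the genotypes in this spread was not shown for them.

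**Figure D4:**
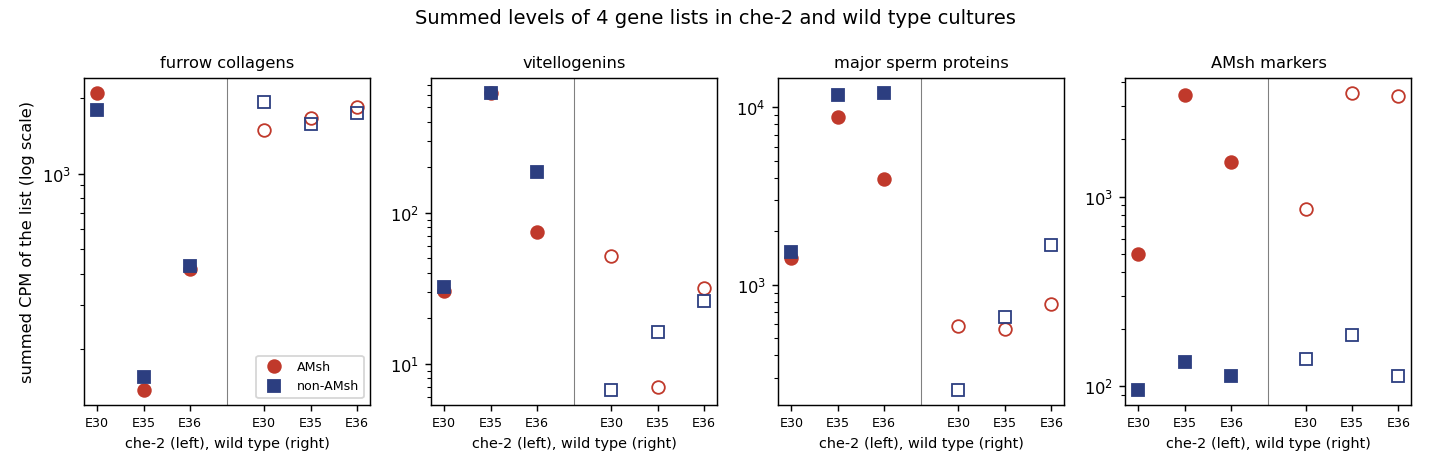
Summed CPM (log axis) of furrow collagens, vitellogenins, major sperm proteins and AMsh markers in cultures E30, E35 and E36 of che-2 (filled, left of the line) and wild type (open, right of it), for AMsh (red circles) and non-AMsh (blue squares) libraries, each genotype scaled on its own. The che-2 furrow collagens are highest in E30, with sums of 2089 and 1784 CPM, and those of wild type lie between 1492 and 1928 CPM; the AMsh markers are lowest in the E30 AMsh library of both genotypes.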

How the data were processed

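RNA was sequenced from sorted AMsh and non-AMsh fractions of 3 che-2 and 3 wild type cultures. Per the submitters' processing notes, CASAVA 1.8.2, FastQC, STAR 2.3, featureCounts and genome build WBcel235 were used. How strand and multi-mapping reads were handled is not given in the sources used here. What the authors deposited is 1 table of whole-number counts for 46726 genes, with no normalization. It was mapped to symbols and coordinates by gene ID (43623 IDs had a symbol, and 46364 an annotated position). Of these genes 24533 had no count in any che-2 library.

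With edgeR 4.0.16, genes were filtered by filterByExpr, leaving 17432, libraries were scaled by TMM, and CPM was computed on the scaled totals, so CPM over all genes need not sum to a fixed total. Counts of both fractions were summed per culture for the quasi-likelihood test of 1 culture against 2. Each fraction was also tested alone, and a difference was accepted at an adjusted p under 0.05. Those 2 fraction tests reuse the same cultures and are no independent replicates. limma 3.58.1 and DESeq2 1.42.0 gave alternatives, with further scalings, filters, pseudocounts and left-out cultures. Fits ran in R 4.3.3 and tables in Python 3.11.15. Depth sets a floor of 3 counts, 0.129 to 0.195 CPM per che-2 library.

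Samples were grouped by genotype, fraction and culture code in their titles, which the header rows of the count table repeat. The names of the E35 columns also contain E36, and some E36 titles carry the replicate number of E30; the culture codes were followed. The replicate codes pair fractions because both were sorted from 1 culture, and deviations of same-culture fractions correlated at 0.207 to 0.585. Gene lists and members were chosen with earlier results of these data known. Genes named are the 12 with the largest summed change per direction (mean of at least 5 CPM) among those past the rule, up to 4 members past it from each list, and a fixed set of stage markers; other members named were chosen after their values were seen. Coordinates are WBcel235. Sequences were not used here.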

Additional observations from a re-analysis of the deposited data

How the results depend on the processing

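On culture sums, the count called was 0 higher and 0 lower, and stayed at 0 with RLE scaling, with all 6 cultures in 1 fit, and with the culture as a replicate block in limma-voom over the 6 libraries (correlation 0.183). It was 3 and 46 with upper-quartile scaling, 235 and 530 without a filter on low counts, 112 and 531 with DESeq2, and 6 and 29 with the 6 libraries and a fraction term, which counts the fractions of a culture as separate replicates. In the AMsh fraction (70 called, 10 of them higher) DESeq2 called 200 with 26 higher, RLE scaling gave 3 higher, upper-quartile scaling 26 higher, and no filter 131 with 37 higher. In the non-AMsh fraction (539 called, 113 higher) DESeq2 called 909 with 191 higher, RLE scaling gave 74 higher, and no filter 1481 with 448 higher. The alternatives within fractions were chosen after seeing the data. The cause of these shifts was not tested.

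The rule gave 145 higher and 378 lower at 4-fold. Leaving out E35 or E36 gave 561 to 1230 higher and 996 to 1725 lower; without E36, 655 of the 722 higher and 1166 of the 1301 lower genes were still among them, and without E35, 421 and 778. Leaving out only the AMsh library of E35 gave 543 and 1018. Without E35, moulting genes were 13 higher and 1 lower, body shape collagens 2 and 1, histones 7 and 1, hedgehog-related genes 7 and 7, furrow collagens 6 and 0, and major sperm proteins 0 and 27. The test of the difference between genotypes gave 306 above and 455 below with DESeq2, 496 and 610 without a filter, and 0 to 599 above and 0 to 609 below when 1 culture was left out (171 and 177 without che-2 E35, 599 and 609 without che-2 E36).

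Of the 106 named genes, the sign of the culture-sum difference turned for vit-1 (0.25) and lin-28 (0.0202) under the replicate block, and for hbl-1 (0.23) with a fraction term; none of these 3 was called in edgeR's test of culture sums. Without E35 the result moved for 45 of the 106 named genes and stayed the same for 61. Without E36 it moved for 17 and stayed the same for 89. Wherever a fold rests on E30 counts of 0 to 3 over the culture, depth limits it to the bound or interval given. The fitted non-AMsh changes of col-7 and col-8 rest on E30 values at or under the floor of 3 counts, and have no bound or interval here.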

Other observations

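Families outside the lists were searched by symbol, and those with at least 8 measured members and at least 50% past the rule in 1 direction are given here, so they were chosen after their values were seen. Over all genes 4.14% were higher and 7.46% lower. The nspb family, small peptides named after a nematode-specific group, had 11 of 12 members lower in E30 and 10 lower in the non-AMsh test. Its summed level was 21.96 and 25.7 CPM in E30, against 907 and 928 in E35 and 314 and 617 in E36 in che-2, and 207 and 349 CPM in E30, against 104 and 124 in E35 and 173 and 252 in E36 in wild type. nspb-6 was at 9.34 and 8.16 CPM in E30, against 310.0 and 333 in E35 and 95 and 232 in E36 (adjusted p = 0.00527). The fipr family had 13 of 25 lower and 1 higher, fipr-24, at 6.07 and 6.91 CPM in E30, against 0.865 and 1.65 in E35 and 3.46 and 3.13 in E36. Its family sums were 464 and 497 CPM in E30, against 2751 and 2166 in E35 and 1183 and 1449 in E36. The abu family summed to 936 and 744 CPM in E30, against 731 and 1148 in E35 and 783 and 975 in E36. That sum was highest in E30 in the AMsh fraction and lowest in E30 in the non-AMsh fraction. Of the abu genes, named for activation in blocked unfolded protein response, 7 of 11 were lower and 1 was higher; abu-10 was at 11.2 and 11.96 CPM in E30, against 111 and 181 in E35 and 50.1 and 108 in E36 (adjusted p = 0.0154), and the higher one, abu-13, at 333 and 266 CPM in E30, against 24.5 and 55.7 in E35 and 135 and 136 in E36.

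Other families had many members higher in E30. The wrt genes, part of the hedgehog-related list, had 5 of 9 higher. Of the cadherin genes 5 of 9 were higher and 1 lower. The family summed to 607 and 516 CPM in E30, against 487 and 534 in E35 and 305 and 719 in E36. That sum was highest in E30 in the AMsh fraction and lowest in E30 in the non-AMsh fraction. cdh-7 was at 111 and 68.2 CPM in E30, against 5.01 and 10.1 in E35 and 14.1 and 16.2 in E36 (adjusted p = 0.0245), cdh-12 at 343 and 285 CPM in E30, against 12.2 and 22.3 in E35 and 69.4 and 78.9 in E36, and the lower one, cdh-5, at 38.8 and 55.9 CPM in E30, against 436 and 468 in E35 and 181 and 599 in E36 (adjusted p = 0.0154). Among the cathepsin B-like cpr proteases of the gut, 4 of 8 were higher and 1 lower, and 0 of the higher ones passed the non-AMsh test. cpr-5 was at 7149 and 7278 CPM in E30, against 1778 and 2454 in E35 and 2005 and 2779 in E36 (adjusted p = 0.0817), and the lower one, cpr-2, which passed, at 10.5 and 3.55 CPM in E30, against 91.9 and 43.9 in E35 and 16.4 and 18.8 in E36 (adjusted p = 0.0371). The puf genes had 4 of 8 lower.

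Collagens used as dauer markers did not meet the rule in che-2. col-40 was at 4.36 and 0.872 CPM in E30, against 6.51 and 27.98 in E35 and 2.06 and 5.96 in E36, and col-2 at 3.604 and 3.49 CPM in E30, against 11.6 and 21.8 in E35 and 3.12 and 2.48 in E36, so both stood under 30 CPM in all 6 che-2 libraries. In wild type col-40 was at 10953 and 13600.0 CPM in E30, against 3639 and 2824 in E35 and 484 and 462 in E36, and col-2 at 13097 and 15807 CPM in E30, against 4448 and 3329.8 in E35 and 512 and 501 in E36. Both were above 400 CPM in every wild type library, and among these both were highest in culture E30 and lowest in E36, in each fraction. Another gene of that pattern, chosen after its values were seen, was the hedgehog-related grl-25, at 2.23 and 0.311 CPM in E30, against 11.5 and 8.29 in E35 and 2.36 and 2.22 in E36 in che-2 and at 6188 and 7667 CPM in E30, against 1864 and 1485 in E35 and 181 and 132 in E36 in wild type.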
